A study of Mus musculus with 8 samples.

Results

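Aquaporins are the channel proteins through which water, and in some of them glycerol, crosses cell membranes. The 7 aquaporin genes described here are Aqp1, Aqp3, Aqp4, Aqp5, Aqp7, Aqp9 and Aqp11, of 49671 genes in the deposited count table. They were chosen by name, with results of these data known, because Aqp3 was lower in filaggrin knockout skin and because Aqp7 did not follow other fat genes. RNA sequencing was done on total back skin of 8-week-old mice with the Flg genotype ko/ko (KO, 4 libraries) or wt/wt (WT, 4 libraries). Flg encodes profilaggrin, the precursor of the epidermal barrier protein filaggrin, and the series asks how its deficiency alters expression in the skin as a whole. Strain and sex are not stated in the labels, and nothing in them ties a library to its own animal, so p-values measure only the spread between these samples. Whole skin mixes epidermis, hair follicles, glands, vessels, muscle and fat, and fewer cells of a type cannot be told apart from less RNA per cell.

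Each aquaporin folds around a narrow pore lined by a pair of short conserved boxes, classically asparagine-proline-alanine. Water-selective members such as Aqp1, Aqp4 and Aqp5 pass little besides water, whereas the aquaglyceroporins Aqp3, Aqp7 and Aqp9 also pass glycerol. In mouse skin, Aqp3 sits in the membranes of living keratinocytes and carries the water and glycerol that keep the epidermis hydrated and supple, and Aqp7 is the route by which glycerol leaves fat cells during fat breakdown.

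The codons of the 2 boxes are shown for 6 members because they line the pore, together with the flanking codons, in which water and glycerol channels differ. Sequences are from the coding strand of GENCODE transcripts (mm10), 5′ to 3′, with the 3 codons of the box in capitals.
Aqp3, first box: gcccacttgAACCCCGCTgtgaccttc
Aqp7, first box: gcccacatgAATGCCGCAgtgactttc
Aqp9, first box: ggccacatcAACCCAGCGgtgtctttt
Aqp1, first box: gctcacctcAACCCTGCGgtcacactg
Aqp5, first box: ggccacatcAATCCGGCCattactctg
Aqp11, first box: acagctagcAACCCGTGCggcgtgatg
Aqp3, second box: tatgccgtcAACCCTGCCcgtgacttt
Aqp7, second box: tatgcaatcAACCCATCCcgtgacctg
Aqp9, second box: tgtgccatgAACCCTGCTcgagacctc
Aqp1, second box: tgcggtatcAACCCTGCCcggtcattt
Aqp5, second box: tgttccatgAACCCAGCCcgatctttc
Aqp11, second box: gcattgtttAACCCAGCGctggcactt
After the second box, the second codon was gac in each of Aqp3, Aqp7 and Aqp9, the place where glycerol channels are known to hold an aspartate, and tca or tct in Aqp1 and Aqp5. Aqp7 is known for boxes that depart from the classical form, and its boxes lie at chr4:41035602-41035628 and chr4:41034804-41034830 on the minus strand. Those of Aqp3 lie at chr4:41094810-41094836 and chr4:41093832-41093858, also on the minus strand. Aqp11 belongs to a distant branch of the family in which the first box ends in a cysteine.

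Library totals lay between 18483242 and 38545957 counts. Flg itself was at 22.3 to 27.0 CPM (read counts scaled to library size and composition) in KO and at 46.5 to 66.9 CPM in WT, so that KO libraries kept 41.6% of the WT mean. The first principal component (34.9% of variance) set WT replicates 1 and 4 at 43.9 and 38.7, apart from KO at -26.9 to -10.8 and from WT replicates 2 and 3 at 3.01 and -1.27. The second component set WT replicates 2 and 3 at -31.9 and -37.3, apart from all other libraries at 0.891 to 17.4. KO replicates 2 and 4 were the closest pair of libraries, with a chi-square of 5.79 per degree of freedom against 16.9 or more for other pairs within a genotype. WT libraries were further apart, at 18.9 to 65.0 between pairs, against 5.79 to 24.6 in KO. Keratin genes of the epidermis were abundant in all libraries, with Krt10, a keratin of the living upper epidermis, at 2927 to 3632 CPM in KO and 3416 to 3700.2 CPM in WT.

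All 7 members passed the filter on low counts, and 1 of them, Aqp3, was called at an adjusted p under 0.05 by edgeR's quasi-likelihood test over all 19099 genes tested. Of all genes tested, 1.41% were called, and 0.702% were called lower in KO. The choice of members used this comparison, so their count is a description and nothing is read from it. The log2 fold change (KO over WT) was below 0 in 6 members and above 0 in 1, with a median of -0.22 against -0.02 over all genes tested. CPM did not overlap between genotypes in 2 members, Aqp3 and Aqp9, both with KO lower, and overlapped in 5. Over all genes tested 11.5% did not overlap, 5.95% with KO lower and 5.57% with KO higher. The counts given below for gene lists stand beside these over all 19099 genes. In edgeR's test 3724 had an unadjusted p under 0.05. DESeq2 called 1162 of them at an adjusted p under 0.05, and limma voom with quality weights called 2535.

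**Figure D1:**
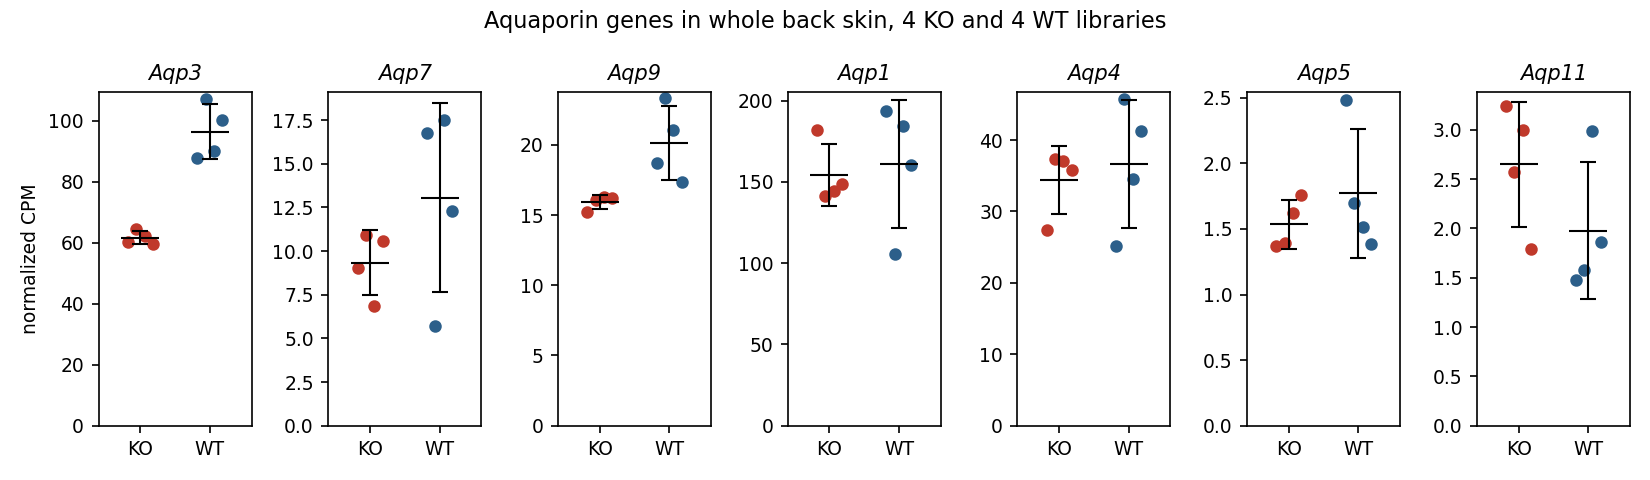
Normalized CPM of each aquaporin gene by library, with KO at the left and WT at the right of each panel. Points are libraries in replicate order, and the bar and whiskers are the mean and SD of 4 libraries; Aqp3 and Aqp9 show no overlap between genotypes, and Aqp7 has its lowest library in WT at 5.69 CPM.

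The members differed widely in level when counts were set against exon length. Aqp1 had the highest level per length, at 58.7 ± 7.18 RPKM (CPM per kilobase of exon) in KO and 61.3 ± 15.03 RPKM in WT (SD, n = 4 each). Aqp3 followed at 33.7 ± 1.19 RPKM in KO and 52.7 ± 4.93 RPKM in WT. Over the 8 libraries Aqp1 ranged from 40.2 to 73.8 RPKM and Aqp3 from 32.7 to 58.6 RPKM, so these neighbours in the order overlapped.

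Aqp4, Aqp9 and Aqp7 formed a middle group whose ranges also overlapped. Aqp4 stood at 6.77 ± 0.933 RPKM in KO and 7.21 ± 1.76 RPKM in WT. Aqp9 stood at 3.85 ± 0.12 RPKM in KO and 4.86 ± 0.638 RPKM in WT, and Aqp7 at 3.30 ± 0.66 RPKM in KO and 4.61 ± 1.92 RPKM in WT. Aqp5 was below them at 0.921 ± 0.113 RPKM in KO and 1.06 ± 0.295 RPKM in WT. Aqp11 was lowest, at 0.281 ± 0.0672 RPKM in KO and 0.21 ± 0.0739 RPKM in WT. Its counted exons span 9418 bases, and with the 3737 bases of its longest coding transcript the mean over 8 libraries was 0.619 RPKM in place of 0.246 RPKM. Aqp9 likewise moved to 6.82 RPKM from 4.35 RPKM with its coding transcript, next to Aqp4 at 7.03 RPKM.

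**Figure D2:**
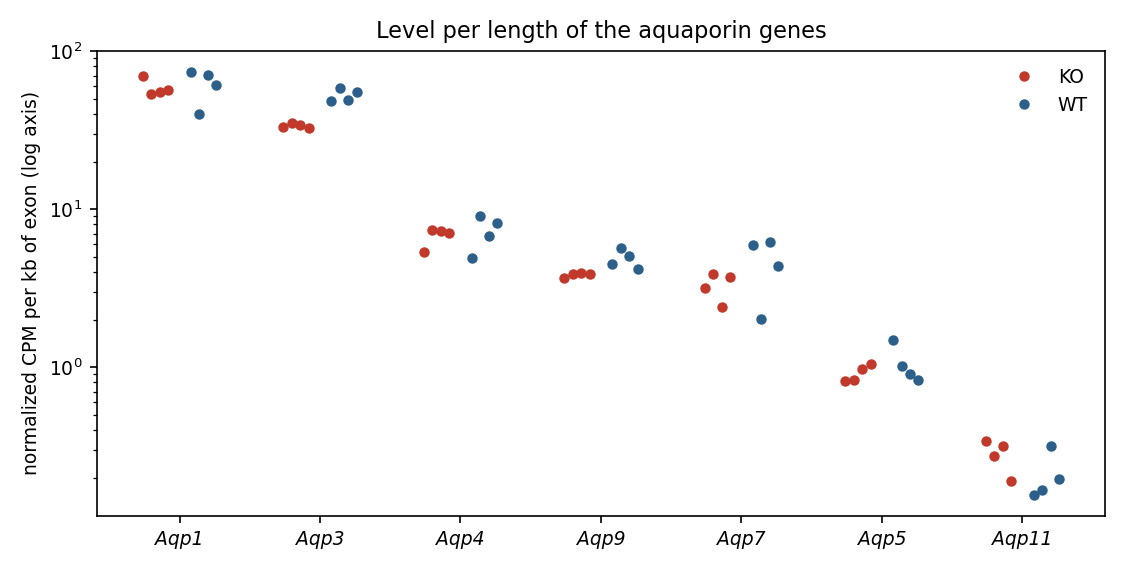
Level per length of the 7 genes on a log axis (normalized CPM per kilobase of exon), one point per library, KO at the left of each pair and WT at the right. Aqp1 and Aqp3 lie at 32.7 or above in every library and Aqp11 at 0.344 or below.

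Aqp3 (ENSMUSG00000028435, chromosome 4, positions 41092722 to 41098183, minus strand, mm10) was lower in KO skin than in WT skin. Its level was 60.3, 64.6, 62.1 and 59.7 CPM in KO replicates 1 to 4, against 87.9, 107, 90.1 and 100.4 CPM in WT replicates 1 to 4. Every KO library lay below every WT library, and the KO libraries lay close together, with a coefficient of variation of 3.52% against 9.36% in WT. The KO mean was 64.0% of the WT mean. Its log2 fold change was -0.64 ± 0.08 (SE, 95% interval -0.82 to -0.47, edgeR adjusted p = 0.0106, lower in 4 of 4 KO libraries), which is the value for which the gene was chosen. The libraries held 1206 to 3041 Aqp3 counts each. Without KO replicate 2 or 4 the adjusted p was 0.0528 or 0.0565, at log2 fold changes of -0.67 and -0.63.

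Aqp3 is known from basal keratinocytes, and 11 of 14 markers of that layer had a log2 fold change below 0. Of these 14 edgeR called 0, with 1 at an unadjusted p under 0.05, and DESeq2 and limma voom each called 1 lower. Their summed level was 9042 to 10083 CPM in KO and 10074 to 11035 CPM in WT, and their median log2 fold change was -0.03. Krt5, a keratin of the basal layer, was at 2091 to 2475 CPM in KO and 2534 to 2709.7 CPM in WT, which did not overlap, with a log2 fold change of -0.21 ± 0.11 (SE, not called). Krt15 had one of -0.41 ± 0.14 and the linker gene Dst one of 0.36 ± 0.17 (SE). Dst was at 2066 CPM in KO replicate 1, with the other KO libraries at 1249 to 1392 CPM, inside the WT range of 1027 to 1425 CPM. Set against the mean log2 CPM of the basal markers, Aqp3 stood at -2.45 to -2.17 in KO and at -1.90 to -1.58 in WT, again with no overlap. With that mean as a covariate the log2 fold change of Aqp3 was -0.66 (edgeR adjusted p = 0.0163). Aqp3 was chosen by this contrast, so that value is a description. The part of basal keratinocytes in the level of Aqp3 was not tested.

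Markers of the suprabasal keratinocytes above them were lower in KO on average, as Aqp3 was. Of 22 tested, 4 were called lower and 0 higher, at a median log2 fold change of -0.12 and with 18 below 0. Their mean was 7.38 to 7.47 log2 CPM in KO and 7.52 to 7.70 log2 CPM in WT, and their summed level was 11596 to 13525 CPM in KO and 12820.2 to 14684 CPM in WT, with no marker at 0 in all libraries. The called genes were the transglutaminase gene Tgm5 at -0.57 ± 0.08, the protease inhibitor gene Cst6 at -0.86 ± 0.16, Lypd3 at -0.48 ± 0.09 and the calmodulin-like gene Calml3 at -0.40 ± 0.08 (log2 fold change ± SE). Set against the suprabasal mean, Aqp3 stood at -1.52 to -1.42 log2 units in KO and at -1.21 to -0.83 log2 units in WT. The part of these markers in the level of Aqp3 was not tested.

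White adipocyte markers averaged 6.95 to 7.61 log2 CPM in KO and 6.21 to 7.27 log2 CPM in WT, which overlapped, and edgeR called 0 of 24, with 15 at an unadjusted p under 0.05 and 9 and 13 called higher by DESeq2 and limma voom. With the white adipocyte marker mean as a covariate the log2 fold change of Aqp3 was -0.52 (edgeR adjusted p = 0.157), in a fit that called 2 genes of all those tested. That value too is a description, and the part of fat in the level of Aqp3 was not tested.

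Aqp7 (ENSMUSG00000028427, chromosome 4, positions 41033074 to 41048139, minus strand) lies 44.6 kb from Aqp3, with a single annotated small gene between them that had no reads. Its level was 9.03, 10.9, 6.83 and 10.6 CPM in KO replicates 1 to 4, against 16.8, 5.69, 17.5 and 12.3 CPM in WT replicates 1 to 4. WT replicate 2 was the lowest of all 8 libraries and the other WT libraries were the highest, so the genotypes overlapped. The largest WT value was 3.07 times the smallest, the widest spread of any member within a genotype. Its log2 fold change was -0.49 ± 0.30 (SE, 95% interval -1.17 to 0.19), which was not called. With single libraries left out it lay between -0.73 without WT replicate 2 (edgeR adjusted p = 0.0643) and -0.31 without WT replicate 3 (edgeR adjusted p = 0.585), and with the adipocyte marker mean as a covariate it was -1.27 (edgeR adjusted p = 0.213), none of them called.

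**Figure D3:**
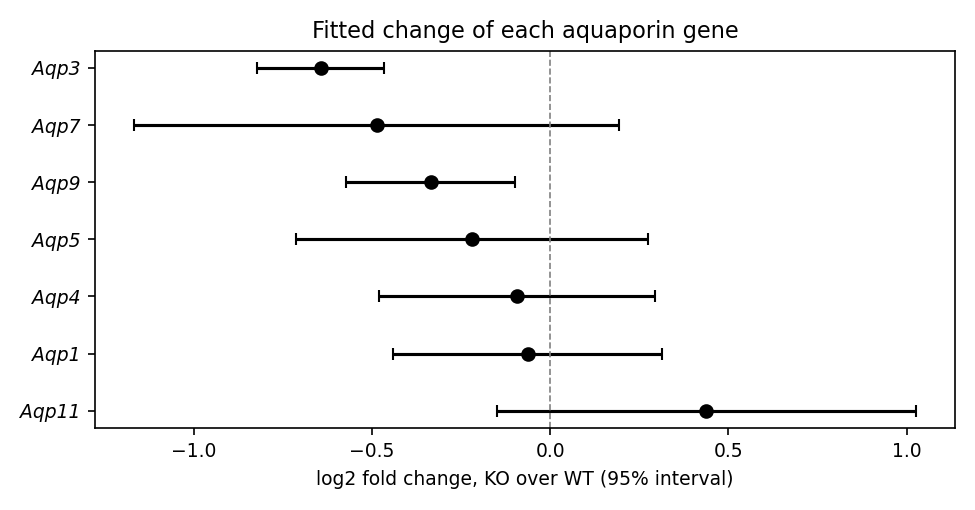
Fitted log2 fold change of each aquaporin gene, KO over WT, with 95% intervals from the edgeR fit over all genes. The interval of Aqp3 runs from -0.82 to -0.47 and that of Aqp9 from -0.57 to -0.10, and the other 5 intervals include 0.

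The white adipocyte markers mostly had a log2 fold change of the other sign. Of 24 tested, 23 had a log2 fold change above 0 and 1 below, with a median of 0.66. EdgeR called none of them, as given above. Cfd, which encodes the adipokine adipsin, was at 861, 939, 585 and 853 CPM in KO, against 362, 266, 552 and 245 CPM in WT. Plin4, a lipid droplet coat gene, had a log2 fold change of 1.15 ± 0.27 (SE, edgeR adjusted p = 0.0709). The lipase genes Lipe and Pnpla2, whose products take part in fat breakdown, had log2 fold changes of 0.80 ± 0.32 and 0.71 ± 0.25, neither called. None of the 24 markers had a log2 fold change below that of Aqp7, and the nearest was Fabp4 at -0.10 ± 0.27.

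**Figure D4:**
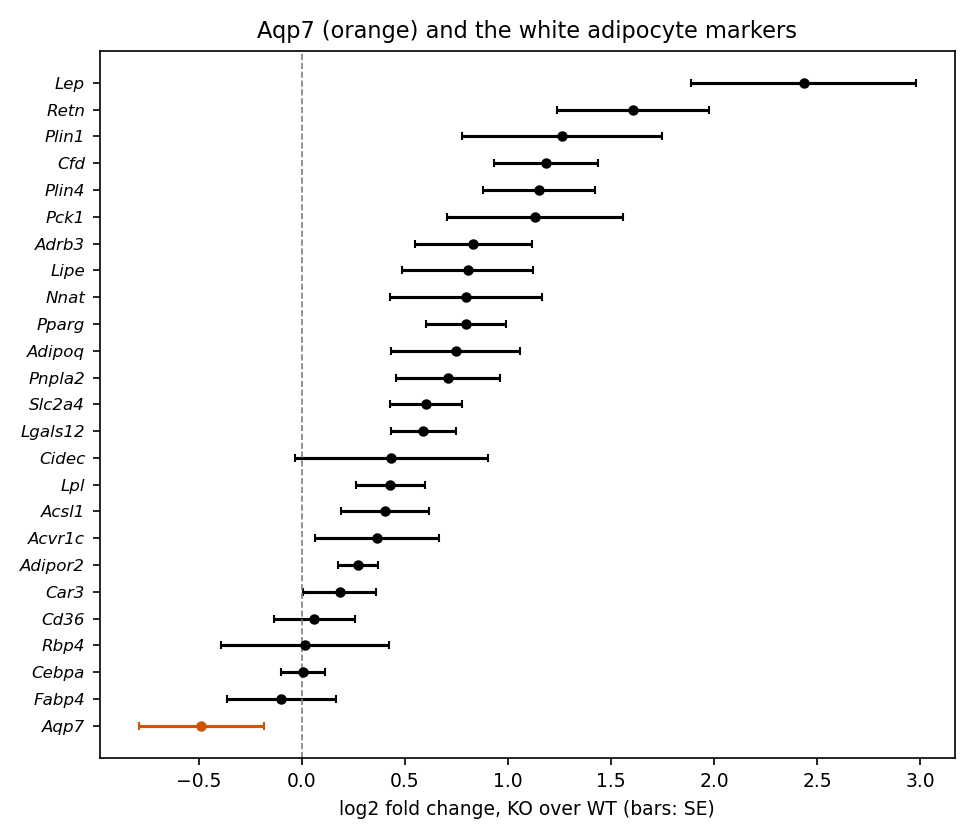
Log2 fold change (KO over WT) with SE of Aqp7, in orange at the bottom, and of the 24 white adipocyte markers, in black. Aqp7 lies at -0.49 and the markers run from -0.10 for Fabp4 to 2.43 for Lep, the leptin gene.

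The markers' mean was 7.53, 7.61, 6.95 and 7.49 log2 CPM in KO replicates 1 to 4, against 6.62, 6.21, 7.27 and 6.40 log2 CPM in WT replicates 1 to 4. WT replicate 3 lay among the KO libraries, and the markers' summed level was 7783 to 10159.5 CPM in KO and 5622 to 9925 CPM in WT, with no marker at 0. Aqp7 minus this mean was -4.34, -4.15, -4.16 and -4.07 log2 units in KO replicates 1 to 4, against -2.54, -3.68, -3.14 and -2.77 log2 units in WT replicates 1 to 4. Every KO library lay below every WT library, and the means differed by -1.15 log2 units (-4.18 ± 0.115 in KO and -3.03 ± 0.494 in WT, SD, n = 4 each). This difference is what the rule names, and it is given with no test.

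Within a genotype Aqp7 and the fat markers were ordered alike in part. Both were lowest of KO in replicate 3 and highest in replicate 2, and both were lowest of WT in replicate 2 and highest in replicate 3. Pck1, which encodes the enzyme that makes glycerol phosphate precursors in fat, was at 136, 186, 90.3 and 158 CPM in KO, against 75.7, 20.99, 100.3 and 63.2 CPM in WT. It had the second highest likeness to Aqp7 of 13588 named genes in deviations from the genotype means (Pearson's r = 0.99 over 8 libraries, with no p), though its log2 fold change between genotypes was 1.13 ± 0.43 (SE).

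**Figure D5:**
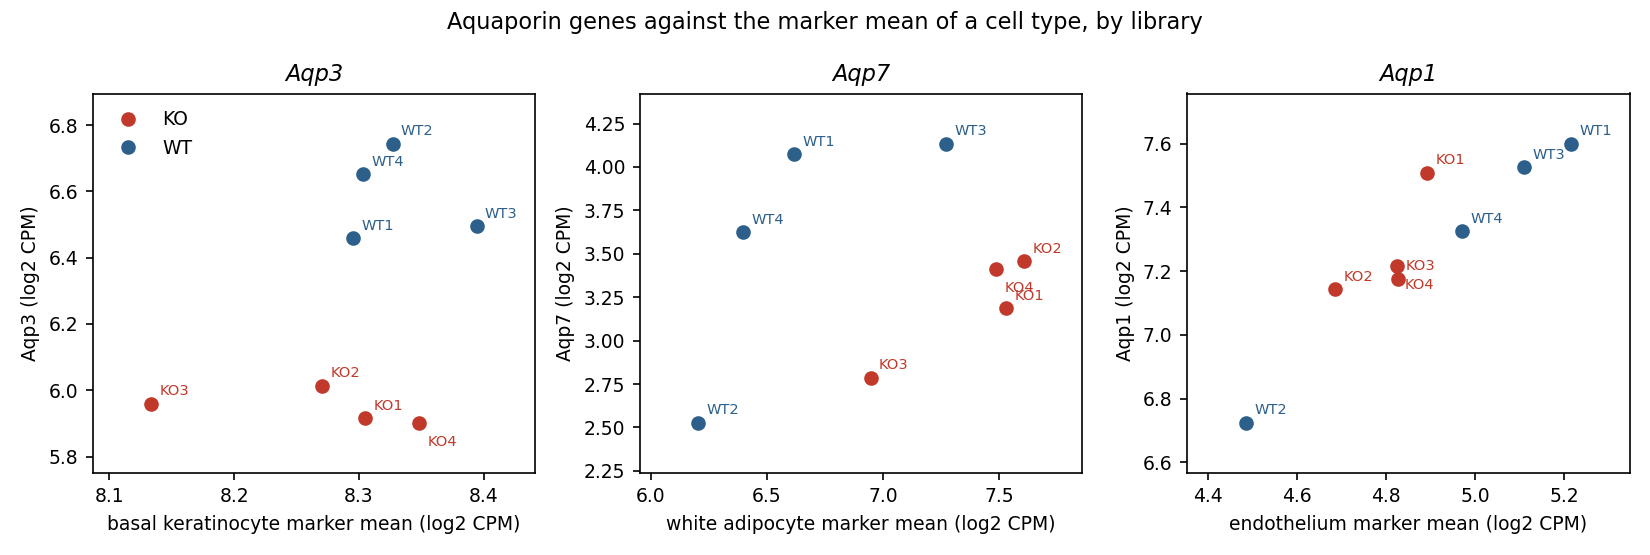
Log2 CPM of Aqp3, Aqp7 and Aqp1 against the mean log2 CPM of basal keratinocyte, white adipocyte and endothelial markers, one labelled point per library, KO in red and WT in blue. All KO points lie below all WT points for Aqp3 and below WT replicates 1, 3 and 4 for Aqp7, where WT replicate 3 lies among KO on the marker axis, and KO and WT points share a rising band for Aqp1.

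The other genes of glycerol and triglyceride metabolism were mostly above 0. Of 27 tested, 1 was called higher and 0 lower, 22 were above 0, 16 had an unadjusted p under 0.05 and the median log2 fold change was 0.43. DESeq2 called 6 higher, and limma voom called 12 higher and 1 lower. Over all 19099 genes tested, DESeq2 called 579 higher and 583 lower, and limma voom called 1174 higher and 1361 lower. The gene that edgeR called was Pnpla3, a lipid droplet protein gene that responds to feeding. It was at 148, 154, 123 and 165 CPM in KO, against 49.7, 48.9, 59.4 and 41.4 CPM in WT. Its log2 fold change was 1.57 ± 0.12 (SE, edgeR adjusted p = 0.00109). Gk, the gene of the kinase that traps glycerol inside cells, had a log2 fold change of 0.03 ± 0.10 and was at 17.9 to 21.2 CPM in KO and 17.1 to 19.6 CPM in WT. This list shares Lipe, Pnpla2, Plin1, Lpl and Pck1 with the adipocyte markers.

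Aqp9 (ENSMUSG00000032204, chromosome 9, positions 71110659 to 71168682, minus strand) is the third glycerol channel and is best known in liver and in white blood cells. Its level was 15.2, 16.1, 16.3 and 16.2 CPM in KO replicates 1 to 4, against 18.7, 23.4, 21.1 and 17.4 CPM in WT replicates 1 to 4. The genotypes did not overlap, and the KO libraries varied by 3.13% of their mean against 13.1% in WT. Its log2 fold change was -0.34 ± 0.11 (SE, 95% interval -0.57 to -0.10), which was not called over all genes (edgeR adjusted p = 0.136). The Aqp9 gene holds 2 other annotated genes on the plus strand in its span, which share 0 exon bases with it.

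Neutrophil markers, the white blood cells in which Aqp9 is known, were low. Of 14 matched, 8 averaged under 1 CPM and none was at 0 in all libraries, and their summed level was 32.4 to 36.2 CPM in KO and 25.8 to 47.6 CPM in WT. Of 8 that passed the filter edgeR called 0, with 3 at an unadjusted p under 0.05. DESeq2 called 1 lower, and limma voom called 1 higher and 1 lower. S100a9 had a log2 fold change of -1.06 ± 0.32, S100a8 of the same list one of 1.29 ± 0.58 and the collagenase gene Mmp8 one of 0.84 ± 0.26 (SE, none called). Of the 8 tested, 5 were above 0 and 3 below, with a median of 0.21. Set against the mean log2 CPM of the 8 tested markers, Aqp9 stood at 2.83 to 2.97 log2 units in KO. In WT it stood at 3.12 to 3.67 log2 units, with no overlap.

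Aqp1 (ENSMUSG00000004655, chromosome 6, positions 55336432 to 55348555, plus strand) is the water channel of capillary endothelium and red blood cells. Its level was 182, 141, 145 and 149 CPM in KO replicates 1 to 4, against 194, 106, 184 and 160.3 CPM in WT replicates 1 to 4. KO values lay inside the WT range. The log2 fold change was -0.06 ± 0.17 (SE), and its 95% interval of -0.44 to 0.31 includes differences of either sign.

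The distance of Aqp1 to the mean of the endothelial markers varied less than that mean did in WT, but not in KO. Its SD was 0.077 log2 units in WT and 0.117 in KO, against 0.323 and 0.087 for the markers' mean. Aqp1 minus the markers' mean was 2.62, 2.46, 2.35 and 2.39 log2 units in KO replicates 1 to 4, against 2.38, 2.24, 2.42 and 2.36 log2 units in WT replicates 1 to 4. The markers' mean itself ran from 4.69 to 4.89 log2 CPM in KO and from 4.48 to 5.22 log2 CPM in WT, lowest in WT replicate 2, the library in which Aqp1 was lowest. Of 19 endothelial markers edgeR called 0, with 4 at an unadjusted p under 0.05, and DESeq2 and limma voom called 2 and 3 lower. Egfl7 had a log2 fold change of -0.52 ± 0.12 and the tight junction gene Cldn5 one of -0.58 ± 0.15 (SE, neither called). Eng, which encodes the endothelial co-receptor endoglin and is itself on the marker list, was among the 3 genes most like Aqp1 over all 8 libraries (r = 0.97).

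Red blood cell genes were low beside Aqp1. The summed level of 12 markers was 64.4 to 114 CPM in KO and 69.4 to 139 CPM in WT, with 5 of them under 1 CPM. The globin gene Hba-a1 was at 14.5 to 27.6 CPM in KO and 13.2 to 31.1 CPM in WT. Of 9 markers tested edgeR called 0, with 1 at an unadjusted p under 0.05, and DESeq2 and limma voom each called 1 higher. The globin gene Hbb-bs had a log2 fold change of -0.40 ± 0.24 (SE, not called).

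Aqp4 (ENSMUSG00000024411, chromosome 18, positions 15389394 to 15403684, minus strand) is the water channel of fast skeletal muscle fibres, here those of the thin muscle sheet under mouse skin, and of brain glia. Its level was 27.3, 37.3, 37.1 and 35.8 CPM in KO replicates 1 to 4, against 25.1, 45.7, 34.5 and 41.3 CPM in WT replicates 1 to 4. The genotypes overlapped, and replicate 1 was the lowest library of each. Its log2 fold change was -0.09 ± 0.17 (SE, 95% interval -0.48 to 0.29).

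Skeletal muscle markers were abundant in every library. Their summed level was 27985 to 33677 CPM in KO and 21610.0 to 31039 CPM in WT. Of 22 tested, 1 was called lower and 0 higher, the median log2 fold change was 0.04 and 13 were above 0, and DESeq2 and limma voom each called 4 lower. The called gene was Tnnt1, the troponin T of slow fibres, at 2.97, 2.19, 2.67 and 1.68 CPM in KO, against 10.3, 3.795, 7.04 and 6.37 CPM in WT. The fast myosin gene Myh4, whose fibres carry Aqp4, had a log2 fold change of 0.48 ± 0.19 (SE, not called). Myl1, a fast myosin light chain gene of the same list, went the other way at -0.48 ± 0.12 (SE, not called). A shift between fibre types was not tested. Aqp4 minus the muscle mean was -4.04 to -3.60 log2 units in KO and -4.09 to -3.44 log2 units in WT.

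Aqp4 is held at the muscle membrane by the dystrophin complex, and the genes of that complex were listed with other membrane partners of water channels. Of 17 tested, 1 was called higher and 0 lower, and the median log2 fold change was 0.17, with 13 above 0. DESeq2 and limma voom called 2 and 5 higher. The called gene was Cav1, which encodes the caveola protein of fat cells and endothelium, at 668, 630.3, 567 and 613 CPM in KO, against 429, 424, 493 and 444 CPM in WT.

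Aqp5 (ENSMUSG00000044217, chromosome 15, positions 99590849 to 99594829, plus strand) is the water channel of secretory gland cells. Its level was 1.37, 1.39, 1.62 and 1.76 CPM in KO replicates 1 to 4, against 2.48, 1.70, 1.52 and 1.39 CPM in WT replicates 1 to 4. The genotypes overlapped, and WT replicate 1 alone stood above the KO range. The log2 fold change was -0.22 ± 0.22 (SE, 95% interval -0.71 to 0.28) at 26 to 86 counts per library.

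Gland markers were sparse in part. Their summed level was 307 to 317 CPM in KO and 276 to 325 CPM in WT. Of 17 matched, 8 averaged under 1 CPM, 2 had no read in any library and 10 were tested. EdgeR called 0, with 1 at an unadjusted p under 0.05, DESeq2 called 0 and limma voom called 1 lower. Krt8, a keratin of secretory epithelium, was at 0.214 to 0.447 CPM in KO and 0.463 to 0.752 CPM in WT (log2 fold change -0.83 ± 0.30, SE), and Wfdc18 had a log2 fold change of 0.70 ± 0.37.

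Aqp11 (ENSMUSG00000042797, chromosome 7, positions 97724006 to 97738289, minus strand) encodes a channel of the endoplasmic reticulum membrane. Its level was 3.24, 2.57, 2.999 and 1.795 CPM in KO replicates 1 to 4, against 1.47, 1.58, 2.99 and 1.86 CPM in WT replicates 1 to 4. WT replicate 3 lay among the higher KO libraries and KO replicate 4 among the lower WT ones. It was the member with a log2 fold change above 0, at 0.44 ± 0.27 (SE, 95% interval -0.15 to 1.03, not called), on 40 to 123 counts per library. It was 0.71 without WT replicate 3 (edgeR adjusted p = 0.0957) and 0.094 with the adipocyte marker mean as a covariate. Of 22 endoplasmic reticulum folding genes edgeR called 0, with 2 at an unadjusted p under 0.05, and DESeq2 and limma voom called 0 each. The stress factor gene Ddit3 had a log2 fold change of -0.27 ± 0.09 and the oxidase gene Ero1l one of 0.21 ± 0.09.

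The other 5 genes of the family were nearly silent in back skin. Aqp8 had 3 reads over the KO libraries and 7 over the WT libraries, Aqp2, the channel of the kidney collecting duct, had 0 and 4, and Aqp6 had 2 and 0. Aqp12 had 1 and 0, and the lens gene Mip had 0 and 1. None of them passed the filter on low counts, and at most 0.169 CPM was reached in any library. The pseudogene Aqp10-ps had 16 reads over KO and 15 over WT libraries.

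Further genes tied to tissue water were examined beside the channels. Of 24 osmolyte and cell volume genes edgeR called 0, with 6 at an unadjusted p under 0.05, and DESeq2 and limma voom each called 1 higher and 1 lower. Over all 19099 genes tested, 3724 had an unadjusted p under 0.05 in edgeR's test. The amino acid carrier gene Slc38a2 was at 381 to 404 CPM in KO and 438 to 537 CPM in WT (log2 fold change -0.32 ± 0.09, SE). The cotransporter gene Slc12a7 was at 46.7 to 52.0 CPM in KO and 30.9 to 43.2 CPM in WT (0.33 ± 0.11). Of 14 genes of hyaluronan, the water-binding sugar chain of skin matrix, edgeR called 0, with 4 at an unadjusted p under 0.05, and DESeq2 and limma voom called 2 lower each. Of these genes 7 were above 0 and 7 below, with a median log2 fold change of -0.003. Their mean overlapped between genotypes, at 3.62 to 3.86 log2 CPM in KO and 3.37 to 3.91 log2 CPM in WT. Their summed level, in which abundant genes weigh most, was 677 to 778 CPM in KO and 456 to 673 CPM in WT, narrowly without overlap. The clearance receptor gene Stab2 and the depolymerase gene Cemip had the smallest p of the list, Stab2 at a log2 fold change of -1.14 ± 0.27 and Cemip at -1.69 ± 0.43 (SE, neither called).

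For each member, the 3 genes most like it in log2 CPM were taken from 13588 named genes that averaged 1 log2 CPM or more. Over all 8 libraries, where the difference between genotypes enters, they were Epcam, Orai2 and Prdm8 for Aqp3 (r = 0.99, 0.99 and 0.98). Epcam, an adhesion gene of epithelium, was at 128 to 135 CPM in KO and 154 to 177 CPM in WT, and it was called lower (edgeR adjusted p = 0.0483). For Aqp7 they were Fam110b, Hexim1 and Mtmr2, for Aqp9 Plgrkt, Haghl and Cib3, for Aqp1 B4gat1, Eng and Matn2, and for Aqp4 Ap1ar, Yju2 and Maml3. For Aqp5 they were Hnrnph3, Fignl2 and Tut1, and for Aqp11 Nckap1l, Ncoa4 and Rhobtb2. In deviations from the genotype means they were Lysmd3, Dynlt3 and Zfp655 for Aqp3, and Col6a5, Pck1 and Vgll4 for Aqp7. They were Agbl3, Neu3 and Stx16 for Aqp9, Slc29a2, B4gat1 and Sh3pxd2a for Aqp1, Pja2, Ndufs1 and Gucd1 for Aqp4, Pabpn1, Cdk10 and Hnrnph3 for Aqp5, and Zfp113, Hsd3b6 and Serpinb1c for Aqp11. With 8 libraries, values of r above 0.93 are reached by some genes for every member, so these names are a description.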

How the data were processed

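The authors deposited unnormalized counts, one whole number for each gene and library. Per the submitters' processing notes, GSNAP, featureCounts 1.6.2 and the mouse build mm10 were used. The labels give 2 library protocols, a SMART one and a strand-specific kit. Which applied, whether counting used strand, and what became of multiply aligned reads is not given in the sources used here. Exon length, another column that the authors deposited, is the featureCounts length in bases. Of 49763 rows, 92 spike-in rows with at most 1 read in a library were left out. Gene IDs matched a symbol in a gene name table for 49326 of 49671 genes, and box sequences came from GENCODE M21 transcripts. Replicates were numbered in accession order, so numbers pair nothing.

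CPM were computed from the deposited counts with TMM factors, and log2 CPM with a prior count of 2. Counts were tested with edgeR 4.0.16 (R 4.3.3; filterByExpr, robust quasi-likelihood, genotype only), adjusted by Benjamini-Hochberg over 19099 genes and called under 0.05. SE come from the F statistic. The fit was tested on simulated data. The alternatives used RLE factors, library totals, other filters, DESeq2 1.42.0, limma 3.58.1 voom with quality weights, marker means as covariates and each library left out. Coding transcript lengths were added after seeing the data. Members and lists were chosen with earlier results of these data known. Genes were named by rule: the members, the family, the called or, if none, the 2 smallest-p genes of each list, and the 3 genes most like each member. Markers such as Krt5, Krt10, Lipe, Pnpla2, Gk, Fabp4, Lep, Hba-a1, S100a8, Myh4 and Myl1 were chosen after their values were seen. Some genes that the rule names are not reported here.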

Additional observations from a re-analysis of the deposited data

Results flagged for a closer look

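In groups of 4 libraries, single values far from the other 3 were looked for in 46 groups, where chance flags about 1 in 20 groups, and 4 were found. Aqp4 in KO replicate 1 was at 27.3 CPM, against 35.8 to 37.3 CPM in the other KO libraries. Aqp9 in KO replicate 1 was at 15.2 CPM, against 16.1 to 16.3 CPM in the other KO libraries. The neutrophil marker mean in WT replicate 3 was 1.28 log2 CPM, against 0.864 to 0.92 log2 CPM in the other WT libraries. The sebaceous gland marker mean in WT replicate 3 was 6.999 log2 CPM, against 5.92 to 6.06 log2 CPM in the other WT libraries.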

How the results depend on the processing

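Aqp3 kept its direction under all alternatives run, and its call under all but the white adipocyte covariate (log2 fold change -0.52) and the fits without KO replicate 2 or 4. Leaving out single libraries gave -0.69 to -0.59. The count of called members was 0 with that covariate and 0 to 1 with single libraries left out. The count of all called genes, 270, was 1162 with DESeq2, 2535 with limma voom, 502 with no filter on low counts and 2 with the adipocyte covariate, and 11 to 1325 with single libraries left out; library totals alone gave 133 higher and 178 lower. Aqp7 minus the adipocyte mean kept its sign throughout, at -1.36 to -0.98 with single libraries left out. Of the 6 uncalled members, Aqp1, Aqp4 and Aqp5 changed sign and Aqp7, Aqp9 and Aqp11 did not: with single libraries left out Aqp1 lay at -0.22 to 0.039, Aqp4 at -0.24 to 0.033 and Aqp5 at -0.32 to 0.00058. Aqp1 was above 0 without WT replicate 1 or 3, and Aqp5 without WT replicate 1. Aqp4 was above 0 without KO replicate 1 or WT replicate 2, at 0.0058 with limma voom and at 0.16 with the adipocyte covariate. The cause was not tested. Aqp5 and Aqp11 had the fewest counts, 26 to 86 and 40 to 123 per library. No paired analysis was possible because the labels carry no replicate numbers.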

Other observations

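Aqp9 was also set against the sebaceous gland, and its log2 CPM minus the marker mean was -2.55 ± 0.258 in KO and -1.93 ± 0.476 in WT (SD, n = 4 each), with overlap. Of 15 sebaceous gland markers edgeR called 0, with 3 at an unadjusted p under 0.05, DESeq2 called 1 higher and 1 lower and limma voom called 3 higher and 1 lower. Their summed level was 2877 to 3606 CPM in KO and 1881 to 3466.5 CPM in WT. The fatty acid synthase gene Fasn was at 1478, 1107, 785 and 1178 CPM in KO, against 257, 204, 699 and 236 CPM in WT, while the sebaceous elongase gene Elovl3 was at 14.7, 8.03, 16.7 and 7.82 CPM in KO, against 34.8, 12.7, 49.2 and 41.4 CPM in WT. Among KO libraries Fasn was lowest in replicate 3, as the white adipocyte marker mean was, whereas Elovl3 was highest there. The part of fat cells in the levels of this list was not tested. Of 12 Schwann cell markers, from the sheath cells of skin nerves, edgeR called 0, with 1 at an unadjusted p under 0.05, and DESeq2 and limma voom called 0 each. The myelin gene Mag had a log2 fold change of -0.52 ± 0.22 and Gfra3 one of -0.42 ± 0.25 (SE).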
